A study of Mus musculus with 2 samples.

Results

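Ccl2, Ccl7, Ccl8 and Ccl12 encode CC chemokines that attract monocytes, and Ccr2 encodes the receptor through which blood monocytes answer several of them. The 5 genes were taken by symbol from the 32285 gene rows of the files, and each had 1 row. The set was chosen by its measured levels in these data, above all the low Ccl2 and Ccl7 values of fibroblast-type cells in the knockout, so every value below is a description.

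Chemokines of this group are small secreted proteins that bind G protein-coupled receptors and to glycosaminoglycans on vessel walls. CCL2, CCL7 and, in the mouse, CCL12 bind CCR2, which classical monocytes use to leave the bone marrow and to enter injured tissue, while mouse CCL8 acts mainly through CCR8. In the injured liver, macrophages, stellate cells, endothelial cells and bile duct cells are known sources of CCL2, and the monocytes drawn in can become macrophages of the fibrotic scar.

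The study isolated liver non-parenchymal cells, which are all liver cells other than hepatocytes, from Mfap2+/+ mice (here wild type) and Mfap2-/- mice (here knockout). Both groups had received CCl4, a hepatotoxin that produces fibrosis, by intraperitoneal injection over 8 weeks, and neither group was untreated. Mfap2 encodes microfibril-associated glycoprotein-1, an extracellular matrix protein of elastic microfibrils. Each genotype is 1 single-cell 3′ RNA library, and the labels give no strain, age, sex or number of animals, so genotype, animal and library cannot be told apart.

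The wild-type library held 11783 cell barcodes and 82499307 unique molecular identifiers (UMIs, each standing for 1 captured transcript). The knockout library held 12872 barcodes and 118226367 UMIs. After filters 10336 wild-type and 11428 knockout cells remained, with median depths of 4695.5 and 6286 UMIs, and 31 of the remaining barcodes occurred in both libraries. Mfap2 itself had 215 UMIs in the wild-type cells, 173 of them in mesenchymal-like cells, against 2 in the knockout cells. The cells formed 30 clusters, of which 26 took a class name, and 47 wild-type and 77 knockout cells were hepatocyte-like. Levels are given as CPM (UMIs of a gene per 1000000 UMIs of the class). Intervals in parentheses are 95% intervals for counting error only, because 1 library per genotype leaves no replicate error and no test. Ratios are log2 of knockout over wild-type CPM with 1 count added to each sum.

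In the GENCODE annotation of the GRCm38 build the 4 chemokine genes lie together on the plus strand of chromosome 11, within 81.23 kb that hold 5 protein-coding genes, the other one being Ccl11. Ccl2 spans chr11:82035571-82037453, Ccl7 chr11:82045712-82047525, Ccl12 chr11:82101845-82103400 and Ccl8 chr11:82115185-82116799. Ccr2 spans chr9:124101950-124113557, also on the plus strand. Ccl2 lies within Gm17268, a gene on the opposite strand at chr11:82028224-82038562, and how strand was treated in counting is not given in the sources used here. Reads of Ccl2 and Gm17268 could therefore not be told apart with certainty. The RefSeq promoter table (GRCm38.p6) matched 3 of the 5 genes, Ccl8, Ccl12 and Ccr2, while Ccl2 and Ccl7 were not matched.

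The 250 bases before the annotated starts of Ccl12 (chr11:82101595-82101844) and Ccl8 (chr11:82114935-82115184) are shown because these genes had the most macrophage-bound expression of the group. The 250 bases before RefSeq's start of Ccr2 (chr9:124101933-124102182) are shown for contrast. That start lies downstream of the GENCODE start given above, so most of the Ccr2 window falls inside the gene's GENCODE span. All are plus strand, written 5′ to 3′ from RefSeq, with a TATA box match in capitals.
Ccl12: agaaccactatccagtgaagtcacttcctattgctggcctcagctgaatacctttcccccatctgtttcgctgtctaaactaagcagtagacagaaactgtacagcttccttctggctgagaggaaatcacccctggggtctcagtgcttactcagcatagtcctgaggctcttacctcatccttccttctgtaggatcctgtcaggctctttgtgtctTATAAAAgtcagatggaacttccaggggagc
Ccl8: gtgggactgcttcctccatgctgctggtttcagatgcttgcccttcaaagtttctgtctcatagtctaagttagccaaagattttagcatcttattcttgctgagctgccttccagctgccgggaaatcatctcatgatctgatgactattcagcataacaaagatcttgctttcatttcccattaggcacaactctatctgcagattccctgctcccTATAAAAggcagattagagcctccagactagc
Ccr2: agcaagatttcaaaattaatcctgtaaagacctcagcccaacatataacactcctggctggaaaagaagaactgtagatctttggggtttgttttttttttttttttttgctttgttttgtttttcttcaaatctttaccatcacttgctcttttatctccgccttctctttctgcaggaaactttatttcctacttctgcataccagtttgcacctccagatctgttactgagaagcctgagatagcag

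The motif TATAAAA stood 31 to 25 bases before the start of Ccl12 and 32 to 26 bases before that of Ccl8. It occurred on either strand in 4.98% of the 32851 promoter windows of the table. Matches to the NF-kB motif, to AP-1 (TGANTCA), to C/EBP (TTGCNNAA) and to the interferon-gamma activated site GAS (TTCNNNGAA), sought on both strands, were not found in these 3 windows. Those 4 motifs occurred in 3.90%, 6.75%, 9.56% and 7.02% of all windows. A match is only a run of letters, and its absence concerns this window alone.

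Ccl2, the main CCR2 ligand, was highest in wild-type mesenchymal-like cells, the class of stellate cells and fibroblasts, where 219 cells held 1356 UMIs, a level of 454 CPM (431 to 479). In the knockout library 276 cells of the class held 371 UMIs, a level of 98.4 CPM (88.7 to 109). The log2 ratio was -2.20 (-2.38 to -2.04), or 4.61-fold lower. Ccl7, a neighbouring ligand of CCR2, had 177 CPM (162 to 192) and 54.9 CPM (47.7 to 62.9), a log2 ratio of -1.68 (-1.92 to -1.45). Of the 4 genes with at least 20 UMIs in this class, Ccl2 and Ccl7 were at least 2-fold lower in the knockout library, against 1.86% of all 12578 genes measured there. None was at least 2-fold higher, against 5.79% of all genes. The rule that chose the genes used this contrast, so the count is no evidence of its own. The median log2 ratio of the 4 was -1.10 and that of all genes in the class 0.14.

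Ccl12 and Ccl8, both macrophage ligands in these data, were near background in mesenchymal-like cells. Ccl12 had 5.36 and 3.71 CPM and Ccl8 3.69 and 2.12 CPM, in the wild-type and knockout libraries. Ccr2 had 8.38 and 11.1 CPM. B-like cells, which should lack the ligands and so show the level of free RNA in the droplets, had 5.43 and 3.01 CPM of Ccl12 and 1.36 and 1.45 CPM of Ccl8. B-like cells had 8.59 and 7.92 CPM of Ccl2 and 6.56 and 3.79 CPM of Ccl7, well under the mesenchymal-like levels of those 2 genes.

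**Figure D1:**
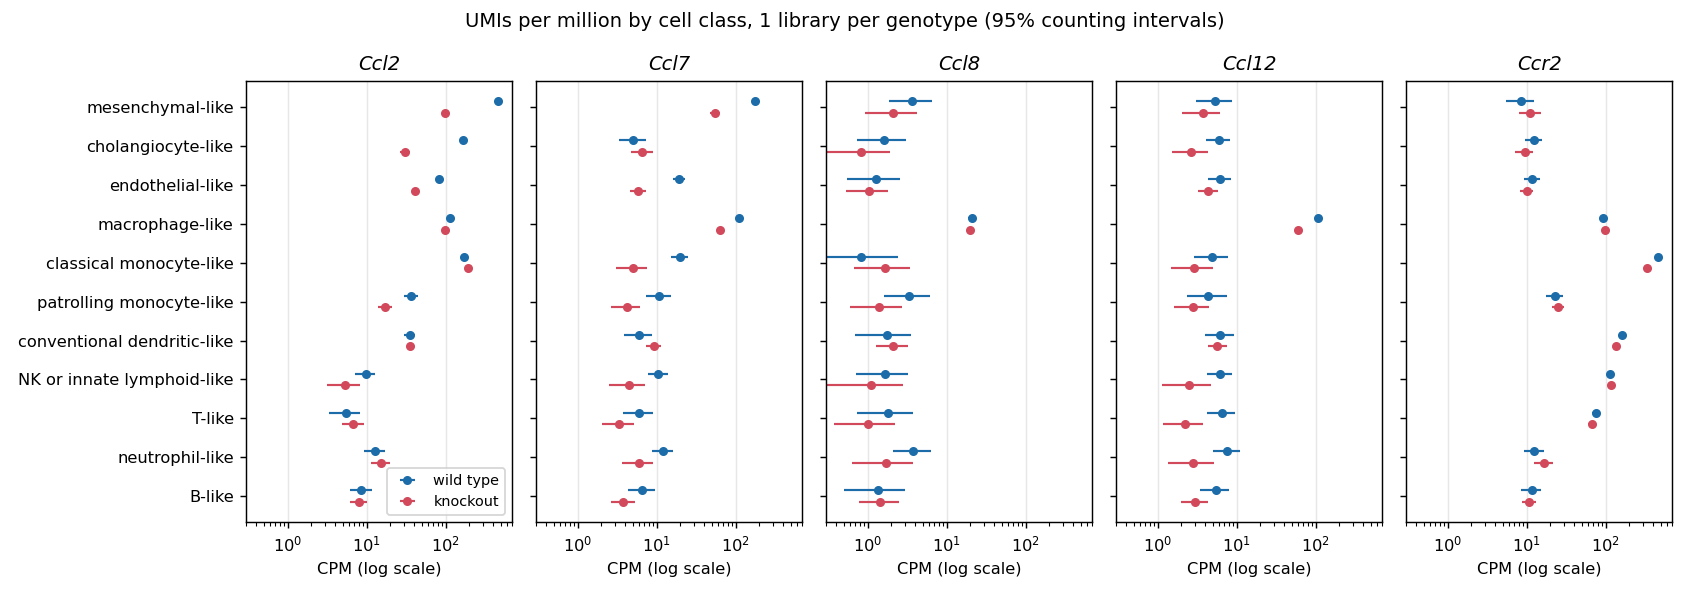
Levels of the 5 genes in 11 cell classes, as CPM on a log axis, with 95% counting intervals and 1 point per library. Ccl2 and Ccl7 spread over several classes, Ccl8 and Ccl12 are highest in macrophage-like cells, and Ccr2 peaks in classical monocyte-like cells at 460 and 329 CPM.

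More mesenchymal-like cells of the wild-type library carried Ccl2 at all. A Ccl2 UMI was present in 56.2% of wild-type and 30.1% of knockout mesenchymal-like cells, at near-equal median depths of 12705 and 12375 UMIs. With each cell thinned at random to 1000 UMIs, the shares were 23.6% (18.04 to 29.9) and 8.26% (5.12 to 12.5), and in B-like cells 1.17% and 0.68%. For Ccl7 the shares were 37.0% and 20.3%, or 13.7% (9.36 to 19.1) and 4.13% (1.999 to 7.47) after thinning. The thinned shares of the libraries did not overlap within their counting intervals for either gene. Both genes were chosen by this contrast and cells of 1 library are not replicates, so the gap is only a description.

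Ccl2 was unevenly spread over single mesenchymal-like cells. The median cell had 0.84 UMIs per 10000 in the wild-type library and 0 in the knockout library, and the highest 83.7 and 30.3. The 5 richest cells held 24.7% of the Ccl2 UMIs of the wild-type class and 41.0% of those of the knockout class. For Ccl7 they held 38.0% and 44.9%. Without those 5 cells in each library the log2 ratio was -2.55 for Ccl2 and -1.85 for Ccl7, so the gap was larger without them.

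Ccl2 and Ccl7 often occurred in the same cells. Of 123 wild-type mesenchymal-like cells with Ccl2, 66 also held Ccl7, and 81 cells held Ccl7 in all. In the knockout library 29 of 83 cells with Ccl2 also held Ccl7, of 56 with Ccl7 in all. Joint detection depends on depth, so it was also read in thinned cells, where 12 of 50 Ccl2 cells of the wild-type library and 2 of 20 of the knockout library also held Ccl7.

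Among mesenchymal-like cells Ccl2 was highest in a sub-cluster with 6 markers of hepatic stellate cells, the vitamin A-storing pericytes of the sinusoid. This stellate-like sub-cluster had 788 CPM (735 to 842) in 95 wild-type cells and 227 CPM (183 to 279) in 40 knockout cells, a log2 ratio of -1.78 (-2.12 to -1.48). Gm17268, the gene on the opposite strand of Ccl2, was among its 10 leading genes. A sub-cluster with no name of its own had 339 and 80.1 CPM in 78 and 129 cells, a log2 ratio of -2.08 (-2.36 to -1.81). The portal fibroblast-like sub-cluster, of the connective tissue around bile ducts and portal veins, had 163 and 94.8 CPM in 38 and 69 cells, a log2 ratio of -0.78 (-1.17 to -0.39). Ccl2 was thus lower in the knockout library in each of these 3 sub-clusters, least so in the portal fibroblast-like cells.

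Ccl7 differed less between sub-clusters. Its levels were 230 and 59.3 CPM in stellate-like cells, 123 and 43.3 CPM in the unnamed sub-cluster and 157 and 76.5 CPM in portal fibroblast-like cells, with log2 ratios of -1.90, -1.50 and -1.04. In vascular smooth muscle-like cells, 3 of 7 wild-type cells held 32 Ccl7 UMIs and 0 of 6 knockout cells any. The makeup of the class also differed, since stellate-like cells were 43.4% of its wild-type and 14.5% of its knockout cells. When the knockout sub-clusters were weighted to the wild-type mix, the Ccl2 log2 ratio was -1.76. A further sub-cluster of low depth (median 848 UMIs) held 1 wild-type and 32 knockout cells and 1 Ccl2 UMI. It took no name, was led by Ptpn22, Ccl5 and Stat4, and made up 11.6% of the knockout cells of the class. These cells are counted in the unthinned knockout shares of cells with Ccl2 and Ccl7.

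**Figure D2:**
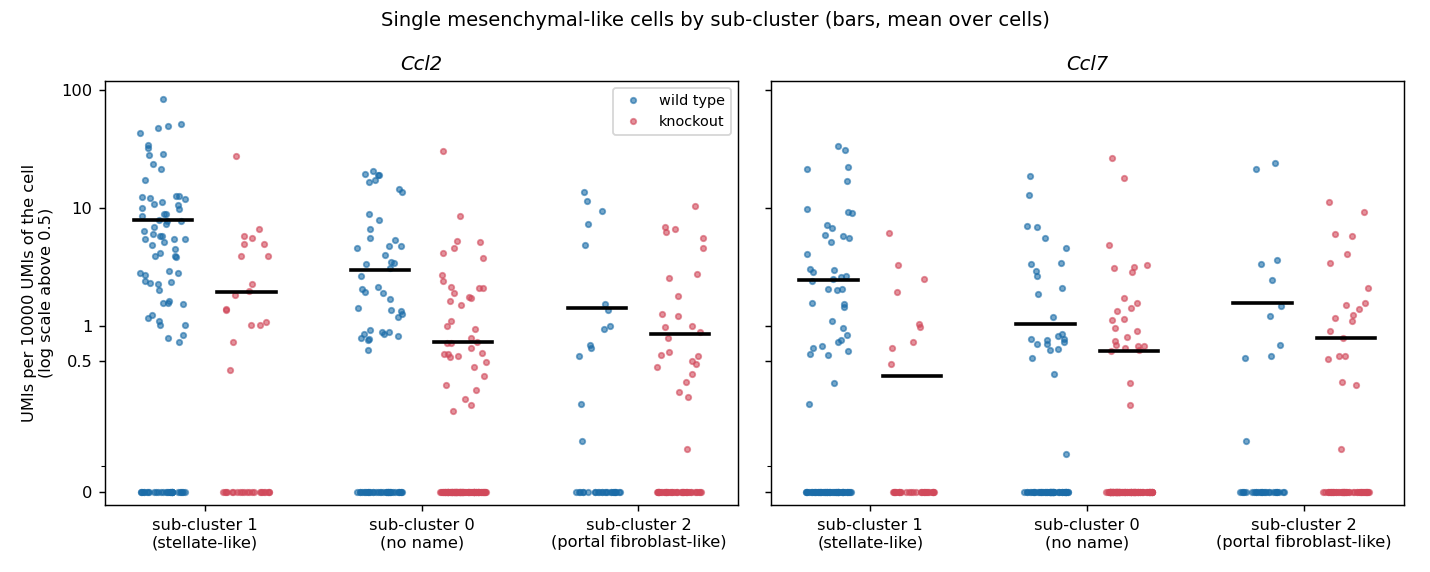
Ccl2 (left) and Ccl7 (right) in single mesenchymal-like cells, as UMIs per 10000 UMIs of the cell (linear below 0.5, log above), by sub-cluster and library; each point is 1 cell and each bar the mean over cells. Wild-type stellate-like cells hold the highest Ccl2 values, and many cells of both libraries sit at 0.

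Markers of other cell types were also read in the mesenchymal-like class. All 15 macrophage markers were detected in both libraries, with a summed level of 1136 CPM in the wild-type and 1362 CPM in the knockout library, and 12 of the 15 were higher in the knockout. The same 15 summed to 969 and 833 CPM in NK or innate lymphoid-like cells and to 1097 and 1276 CPM in conventional dendritic-like cells. In the mesenchymal-like class the 11 neutrophil markers summed to 1565 and 1553 CPM. The 7 classical monocyte markers summed there to 962 and 624 CPM and the 14 endothelial markers to 754 and 771 CPM. The class's own 15 markers summed to 23860 and 17381 CPM. The part of these markers in the Ccl2 and Ccl7 values was not tested. Gm17268 had 47.9 and 30.8 CPM in the class, below the Ccl2 levels in both libraries.

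Macrophage-like cells, with 2107 wild-type and 2140 knockout cells, held more Ccl2 UMIs than any other class in both libraries. Their level was 112 CPM (2477 UMIs) in the wild-type and 98.5 CPM (2713 UMIs) in the knockout library, a log2 ratio of -0.19 (-0.27 to -0.11). Ccl7 in the same cells had 110 and 64.2 CPM, a log2 ratio of -0.77 (-0.86 to -0.69). Ccl12 had 106 CPM (102 to 110) and 59.6 CPM (56.8 to 62.6), a log2 ratio of -0.83 (-0.92 to -0.73). Ccl8 had 20.7 and 19.8 CPM, a log2 ratio of -0.07 (-0.25 to 0.11) whose interval includes 0. Of the 5 genes, 0 were at least 2-fold lower in knockout macrophage-like cells, against 1.12% of all 14977 genes, and 0 at least 2-fold higher, against 6.32%. The median of all genes was 0.14, and scaling by the median of ratios in place of totals gave -0.33 for Ccl2.

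Both Ccl12 and Ccl8 were macrophage transcripts above all. Macrophage-like cells held 86.8% of the wild-type library's Ccl12 UMIs and 84.9% of the knockout's, and 79.5% and 82.5% of the Ccl8 UMIs, while being 20.4% and 18.7% of cells. They also held 69.7% and 72.5% of the Ccl7 UMIs. In classes near the background, Ccl7 was lower in the knockout library in some and higher in others. Cholangiocyte-like cells had 5.004 and 6.61 CPM (log2 0.39, -0.33 to 1.15) and conventional dendritic-like cells 5.95 and 9.21 CPM (log2 0.59, -0.04 to 1.35). B-like cells gave log2 ratios of -0.80 for Ccl7 (-1.55 to -0.02) and -0.86 for Ccl12 (-1.70 to 0.01). The part of the background in the low Ccl7 and Ccl12 levels of other classes was not tested. NK or innate lymphoid-like cells had 10.5 and 4.43 CPM of Ccl7 and 6.19 and 2.49 CPM of Ccl12, the 2 of 4 genes at least 2-fold lower there, against 1.42% of all genes (higher: 0 of 4, against 3.85%). In T-like cells Ccl12, at 6.51 and 2.19 CPM, was the 1 of 4 at least 2-fold lower, against 1.37% of all genes (higher: 0 of 4, against 4.39%).

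The 3 macrophage-like clusters differed in which ligand they held. Cluster 6, led by the Kupffer cell genes Marco, Clec4f and Cd5l of resident liver macrophages, had the most Ccl7, at 151 and 84.3 CPM, and the most wild-type Ccl8, at 28.9 against 25.03 CPM in the knockout. Cluster 1, led by Negr1, Ccl12, Clec4b1 and Fcgr1, had the most Ccl12 in the wild-type library, at 134 against 69.9 CPM. It also had the most Ccl2, at 134 and 116 CPM. Cluster 10, led by Atp6v0d2, Gpnmb and Mmp12, genes of scar-associated macrophages, had the least Ccl2 (69.3 and 56.2 CPM) and Ccl7 (61.9 and 31.1 CPM).

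Log2 ratios also differed between these clusters. For Ccl12 they were -0.94 (-1.05 to -0.82) in cluster 1, -0.38 (-0.55 to -0.20) in cluster 6 and -1.13 (-1.45 to -0.81) in cluster 10. For Ccl8 they were -0.14 and -0.20 in clusters 1 and 6, with intervals that include 0, but 0.65 (0.24 to 1.10) in cluster 10, at 17.3 CPM in the wild-type and 27.5 CPM in the knockout library. For Ccl2 they were -0.21, -0.04 and -0.31 in clusters 1, 6 and 10. Whether the ratios differ beyond differences between animals was not tested.

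**Figure D3:**
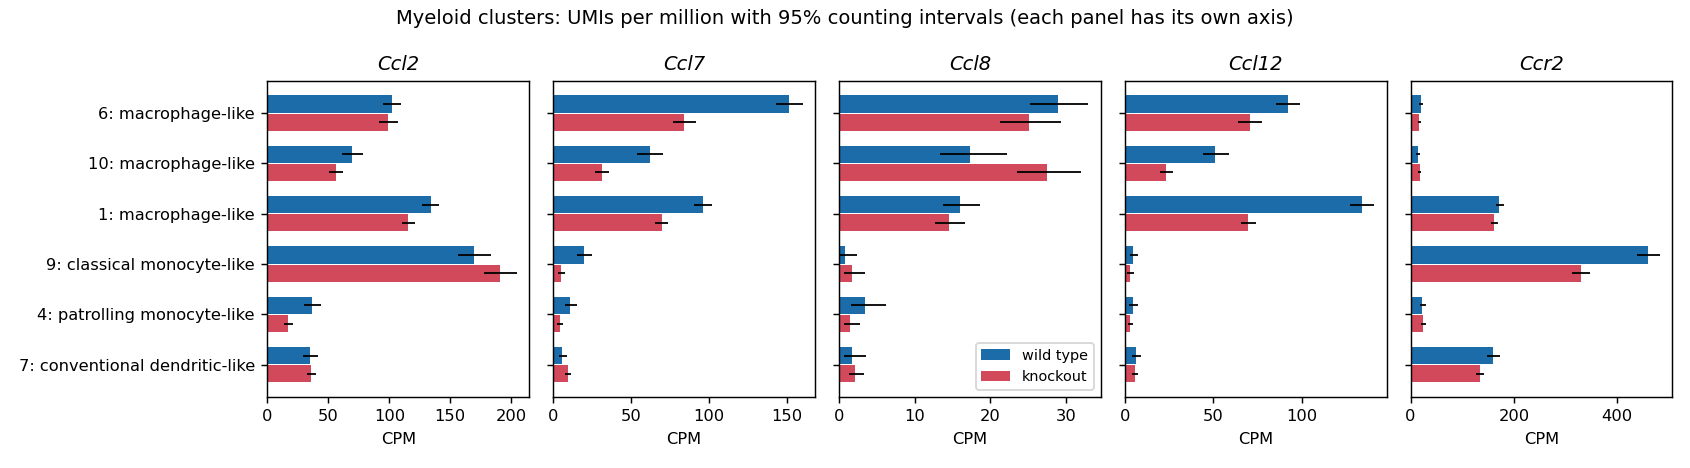
The 5 genes in 6 myeloid clusters, as CPM with 95% counting intervals; each panel has its own linear axis from 0. Ccl12 is highest in the 3 macrophage-like clusters, where the knockout bars are shorter, and Ccr2 is high in the classical monocyte-like cluster and in macrophage-like cluster 1.

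Classical monocyte-like cells, 455 and 418 in number, were themselves a source of Ccl2. They had 169 CPM (621 UMIs) in the wild-type and 191 CPM (804 UMIs) in the knockout library, a log2 ratio of 0.17 (0.02 to 0.33), and a Ccl2 UMI was present in 33.4% and 34.5% of cells. Their Ccl7 was 19.6 and 4.99 CPM, a log2 ratio of -1.93 (-2.75 to -1.26). The 5 richest wild-type cells held 58.3% of those Ccl7 UMIs, and after thinning, with 4 positive cells in each library, the log2 ratio was 0.38, so its direction turned. Ccl7 was the 1 gene of 4 at least 2-fold lower in knockout classical monocyte-like cells, where 1.25% of all genes were, and 0 were 2-fold higher, against 4.47%.

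Patrolling monocyte-like cells, the endothelium-surveying blood monocytes, had 36.5 and 17.1 CPM of Ccl2 and 10.8 and 4.18 CPM of Ccl7. Their log2 ratios were -1.09 (-1.51 to -0.69) and -1.36 (-2.20 to -0.56). Thus 2 of 4 genes were at least 2-fold lower, against 1.27% of all genes, and 0 at least 2-fold higher, against 4.03%. The 5 richest cells held 38.9% of the wild-type and 25.5% of the knockout Ccl2 UMIs. With such cells set aside, Ccl2 read -0.82, short of 2-fold, and Ccl7 -1.24. The Ccl7 intervals (7.39 to 15.25 and 2.68 to 6.21 CPM) overlapped those of B-like cells (4.39 to 9.42 and 2.63 to 5.30 CPM). Conventional dendritic-like cells had 34.95 and 35.9 CPM of Ccl2, a log2 ratio of 0.03 (-0.25 to 0.33). In these cells 0 of the 5 genes were 2-fold lower, against 1.23% of all genes, and 0 were 2-fold higher, against 6.3%.

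Endothelial-like cells, 1219 and 1623 in number, had 83.2 CPM (518 UMIs) of Ccl2 in the wild-type and 40.7 CPM (472 UMIs) in the knockout library. The log2 ratio was -1.03 (-1.21 to -0.85). The sinusoidal cluster led by Stab2, Lyve1 and Clec4g had 81.7 and 38.6 CPM, and the cluster led by Selp, Rspo3 and Vwf 114 and 60.0 CPM. Another deep cluster, with Gja5 among its leading genes, held 1 and 3 Ccl2 UMIs. Ccl7 in endothelial-like cells was 19.3 and 5.87 CPM, a log2 ratio of -1.71 (-2.17 to -1.28), with the knockout level close to the 3.79 CPM of B-like cells. Ccl2 and Ccl7 were thus the 2 of 5 genes at least 2-fold lower, against 2.39% of all genes, and 0 were 2-fold higher, against 3.69%. Markers of other cells were read there too. The 8 patrolling monocyte markers, all detected and all lower in the knockout library, summed to 4576 and 1432 CPM, a list that includes Fabp4, itself a leading gene of 1 endothelial-like cluster. The 15 macrophage markers summed to 2031 and 1881 CPM, the 15 mesenchymal markers to 560 and 388 CPM, and the class's own 14 markers to 12270 and 11195 CPM. Their part in the Ccl2 and Ccl7 values was not tested.

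Cholangiocyte-like cells, the epithelium of the bile ducts, had 168 CPM (940 UMIs) of Ccl2 in the wild-type and 30.4 CPM (184 UMIs) in the knockout library, a log2 ratio of -2.46 (-2.70 to -2.24). A few cells held most of these UMIs. The 5 richest held 76.8% of the wild-type and 67.4% of the knockout UMIs, and the highest wild-type cell had 212. Without those 5 cells in each library the log2 ratio was -2.02. The share of cells with Ccl2 was 14.7% and 17.4%, or 7.78% (4.32 to 12.7) and 3.47% (1.40 to 7.01) after thinning. Most wild-type cells of the class lay in a shallow cluster (median 678 UMIs) and most knockout cells in a deep one, and within the deep cluster Ccl2 was 170 and 29.3 CPM. A per-cell marker gate turned the log2 ratio to 0.48 (-1.08 to 3.24). Ccl2 and Ccl12 were the 2 of 4 genes at least 2-fold lower, against 1.54% of all genes (higher: 0 of 4, against 6.41%). Ccl12 was at background there, with 5.90 and 2.64 CPM.

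**Figure D4:**
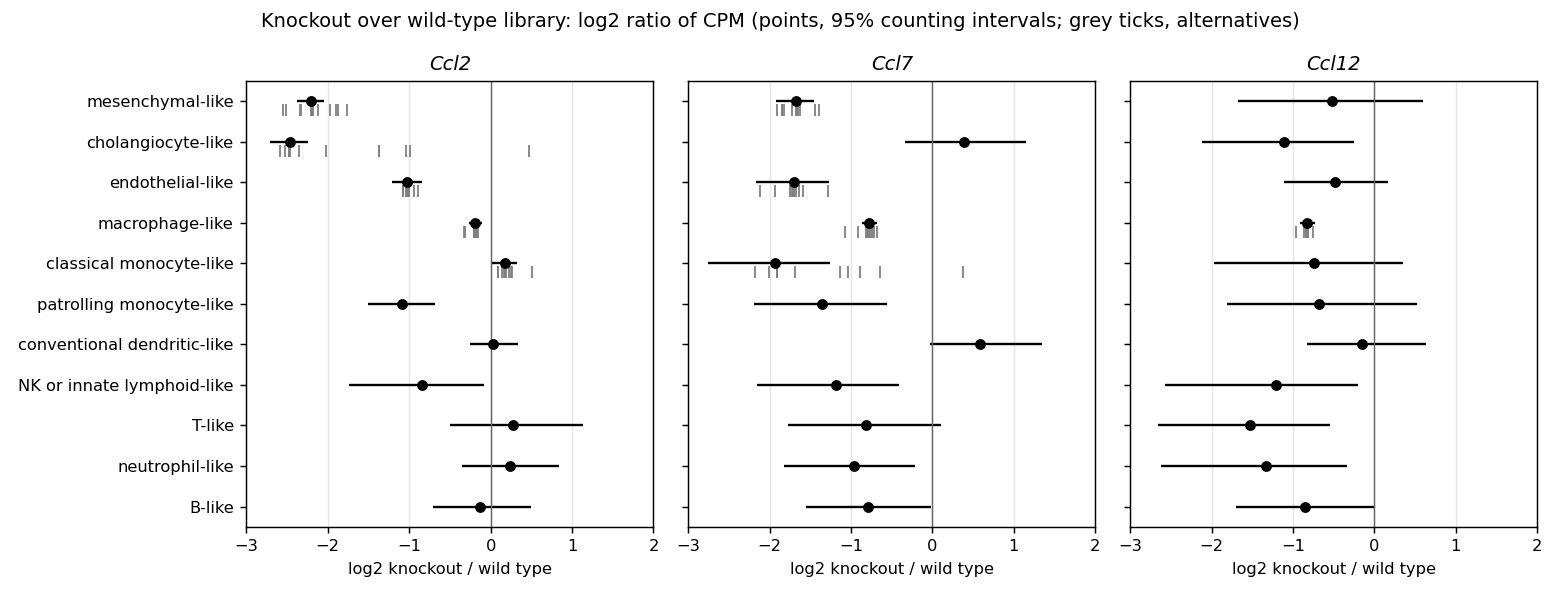
Log2 ratio of knockout over wild-type CPM for Ccl2, Ccl7 and Ccl12 by cell class, with 95% counting intervals; grey ticks below a point are the values under other processing settings, drawn where they were computed. Ccl2 lies near -2.20 in mesenchymal-like cells and near 0 in macrophage-like and classical monocyte-like cells, while Ccl12 reads -0.83 in macrophage-like cells.

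Within the wild-type library, mesenchymal-like cells had a 4.07-fold higher Ccl2 level than the pooled macrophage-like and monocyte-like cells, 454 against 112 CPM (log2 2.03, 1.93 to 2.12). In the knockout library the values were 98.4 and 96.4 CPM (log2 0.03, -0.13 to 0.18). For Ccl7 the wild-type log2 ratio was 1.006 (0.87 to 1.14), at 177 against 88.1 CPM, and the knockout one 0.19 (-0.03 to 0.39), at 54.9 against 48.4 CPM. At least 2-fold higher in mesenchymal-like cells were 30.5% of all genes of the wild-type library and 31.6% of those of the knockout. Without the 5 richest cells of each class the knockout log2 ratios were -0.58 for Ccl2 and -0.41 for Ccl7, so the knockout order of the classes turned with them. The 5 richest cells held 41.0% and 44.9% of these UMIs in knockout mesenchymal-like cells. In the far more numerous macrophage-like cells they held 6.6% and 14.4%, so the classes were not trimmed alike.

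The other 3 genes had the opposite order, and this held in both libraries. Ccl12 was lower in mesenchymal-like than in myeloid cells by log2 ratios of -3.86 (wild type) and -3.49 (knockout). For Ccl8 the log2 ratios were -2.03 and -2.65, and for Ccr2 -3.93 and -3.30.

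The classes that held the Ccl2 pool differed between the libraries. Mesenchymal-like cells, 2.12% and 2.42% of cells, held 20.2% of the Ccl2 UMIs of the wild-type library and 6.57% of those of the knockout. Cholangiocyte-like cells held 14.0% and 3.26%, while macrophage-like cells held 36.9% and 48.0% and classical monocyte-like cells 9.25% and 14.2%. For Ccl7 mesenchymal-like cells held 15.1% and 8.48%.

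**Figure D5:**
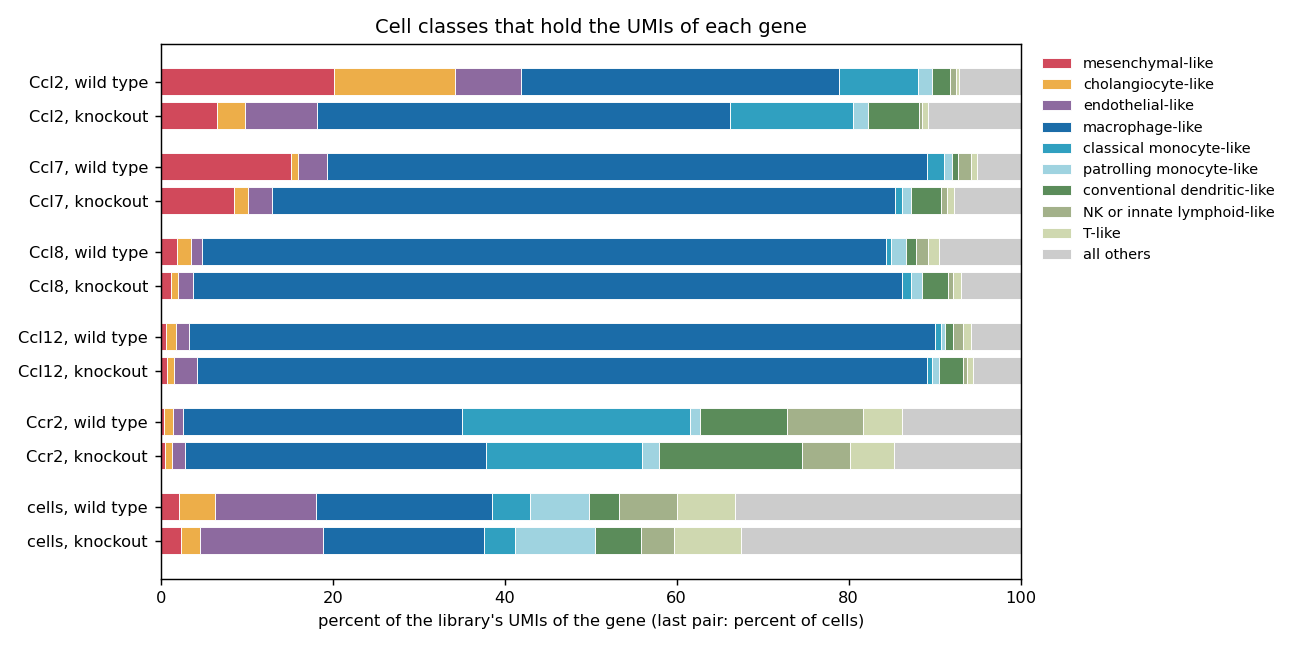
Percent of each library's UMIs of a gene that each cell class holds, with the percent of cells in the last pair of bars. The mesenchymal-like part of the Ccl2 bar is 20.2% for the wild-type and 6.57% for the knockout library, and macrophage-like cells fill most of the Ccl7, Ccl8 and Ccl12 bars.

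Ccl2 and Ccl7, although neighbours on the chromosome, were not held in 1 fixed proportion. Ccl2 made up 97.1% of the summed Ccl2 and Ccl7 UMIs in wild-type cholangiocyte-like cells, 89.6% in classical monocyte-like, 81.2% in endothelial-like, 72.0% in mesenchymal-like and 50.5% in macrophage-like cells. The knockout values were 82.1%, 97.5%, 87.4%, 64.2% and 60.5%. B-like cells, as background, had 56.7% (44.0 to 68.8) and 67.6% (57.8 to 76.4). The part of free RNA in these proportions was not tested.

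Ccr2, the receptor, was highest in classical monocyte-like cells, at 460 CPM (439 to 483) from 1689 wild-type UMIs and 329 CPM (312 to 347) from 1386 knockout UMIs. The log2 ratio was -0.48 (-0.59 to -0.38). A Ccr2 UMI was present in 71.4% and 69.4% of these cells, and in 30.2% (25.9 to 34.6) and 23.6% (19.6 to 27.9) after thinning, with intervals that overlap. B-like cells had 1.5% and 0.62% after thinning. The per-cell marker gate moved the log2 ratio to -1.36 (-1.86 to -0.92).

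Conventional dendritic-like cells, which present antigen to T cells, followed at 160 and 134 CPM, a log2 ratio of -0.25 (-0.39 to -0.11) that the gate turned to 1.70 (0.18 to 5.36). NK or innate lymphoid-like cells had 115 and 118 CPM (log2 0.04, -0.15 to 0.22) and macrophage-like cells 93.1 and 97.1 CPM (log2 0.06, -0.02 to 0.15). T-like cells had 75.8 and 66.3 CPM (log2 -0.19, -0.41 to 0.03). The intervals of dendritic-like and NK or innate lymphoid-like cells separated in 1 library only. Every other step of this order, from classical monocyte-like to T-like cells, separated in both libraries. Mesenchymal-like, endothelial-like and cholangiocyte-like cells lay at 8.38 to 12.3 CPM, as B-like cells did with 11.5 and 10.7 CPM.

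Within macrophage-like cells Ccr2 was highest in cluster 1, with 172 and 162 CPM. The Kupffer gene-led cluster 6 had 20.2 and 16.5 CPM and cluster 10 had 14.3 and 17.5 CPM. The log2 ratio of cluster 1 was -0.09 (-0.17 to 0.00).

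Other chemokine and chemokine-like receptors were read from a list of 8, and which of them bind these ligands was not examined. In mesenchymal-like cells 4 were measured, with a median log2 ratio of 0.40 and 0 past 2-fold, against 1.86% of all genes lower and 5.79% higher. In macrophage-like cells 6 were measured, with a median of -0.07 and 0 past 2-fold, against 1.12% lower and 6.32% higher. The all-gene median was 0.14 in both classes. Ccrl2, a non-signalling receptor, had 367 and 381 CPM there. Ccr1 had 16.3 and 11.3 CPM, a log2 ratio of -0.52 (-0.75 to -0.30), and Ccr3 2.36 and 1.27 CPM. In classical monocyte-like cells, where Ccr2 was lower in the knockout library, Ccr1 (40.1 and 52.3 CPM) and Ccrl2 (323 and 447 CPM) were higher. Ccr8, the receptor of Ccl8, was measured in T-like cells at 8.07 and 10.4 CPM.

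Ackr1, Ackr2 and Ackr4, atypical receptors that bind chemokines without G protein signalling, were highest in endothelial-like cells among the classes where they were measured. Ackr1 had 68.0 and 35.04 CPM in endothelial-like cells, a log2 ratio of -0.96 (-1.16 to -0.76). Ackr2, which degrades inflammatory CC chemokines, had 39.5 and 31.1 CPM, a log2 ratio of -0.35 (-0.59 to -0.11). Ackr4 had 2.25 and 6.13 CPM, a log2 ratio of 1.37 (0.61 to 2.39), the 1 of 6 measured receptors past 2-fold. Of all genes in the class 3.69% were at least 2-fold higher.

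A list of 20 genes that induce the ligands or are induced beside them, such as the NF-kB subunits and their inhibitors, was measured in full in mesenchymal-like cells. None of the 20 was past 2-fold, where 1.86% of all genes were lower and 5.79% higher by that size, and their median was 0.09 against 0.14 for all genes. The lowest were Tnfrsf1a, a TNF receptor, at -0.62 (119 and 77.5 CPM) and Myd88, a Toll-like receptor adaptor, at -0.56 (63.3 and 43.0 CPM). The highest were Tnfrsf1b, the other TNF receptor, at 0.92 (32.8 and 62.6 CPM) and Tnfaip3, an NF-kB inhibitor, at 0.64 (112 and 174 CPM).

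In macrophage-like cells 1 of those 20 was at least 2-fold lower, against 1.12% of all genes, and 0 were at least 2-fold higher, against 6.32%. Il6, a cytokine, had 17.0 and 7.81 CPM, a log2 ratio of -1.12, and Tnf 198 and 110 CPM, a log2 ratio of -0.85. The highest were Il1r1, an interleukin 1 receptor, at 0.56 and Zc3h12a, a ribonuclease that degrades cytokine messengers, at 0.53. The median was -0.01 against 0.14 for all genes.

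Of 16 genes for monocyte survival and adhesion, 15 were measured in mesenchymal-like cells, with a median of 0.03. Sele, the adhesion molecule E-selectin, was the 1 of 15 past 2-fold, against 1.86% of all genes lower and 5.79% higher, at 30.5 and 6.37 CPM (log2 -2.22). Il34, a ligand of the monocyte growth factor receptor, had 92.2 and 55.4 CPM (log2 -0.73). Itga4, an integrin subunit, was at 0.72, among the highest. In macrophage-like cells 0 of 15 were past 2-fold, against 1.12% of all genes lower and 6.32% higher, with a median of -0.17. Itgam at -0.68 and Vcam1 at -0.63 were lowest, and Sele at 0.94 and Cx3cl1 at 0.73 highest.

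Tissue dissociation itself induces stress genes, so 14 of them were read beside the ligands. In mesenchymal-like cells 0 of 14 were past 2-fold, against 1.86% of all genes lower and 5.79% higher, with a median of -0.05 (all genes: 0.14). The lowest were Ier2 at -0.51 and Dusp1 at -0.48, and the highest Hspa1a at 0.28 and Hspa1b at 0.15. In macrophage-like cells the median was 0.23 (all genes: 0.14), Hspa1b at 1.13 was the 1 of 14 past 2-fold, against 6.32% of all genes higher, and Btg2 was at 0.78, with Ier3 at -0.33 and Dusp1 at -0.31 lowest. The part of dissociation in the ligand values was not tested.

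Over 59 sums of cells by cluster and library, the pattern of each gene was set beside 14307 genes by Pearson's correlation of log2(CPM + 1). Nearest to Ccl2 were Tgfbi and Id3 (both 0.79), Zfp385a, Lamp1 and Lrp1 (all 0.77). Nearest to Ccl7 were Lpl (0.79), Sdc3 (0.78), Id3 (0.77), Pmp22 (0.76) and Itgb5 (0.75). Nearest to Ccl12 were Fabp7 (0.86), C3ar1 and Axl (both 0.85), Folr2 and Gm826 (both 0.83). Nearest to Ccl8 were Igf1os (0.81), 8030453O22Rik (0.80), Gm10802 (0.79), Vsig4 (0.78) and Epb41l3 (0.76). Nearest to Ccr2 were Cd48 (0.75), Otulinl (0.72), S100a4 and Ms4a6b (both 0.71) and Itgb7 (0.70).

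Among the 5 genes themselves, Ccl8 and Ccl12 had a correlation of 0.72 and Ccl2 and Ccl7 one of 0.64. Ccr2 and Ccl2 had 0.05, so over the clusters the receptor did not follow its main ligand. The sums share 2 libraries and their depths, and the values are descriptions only.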

How the data were processed

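Per the submitters' processing notes, the authors processed the reads with Cell Ranger 3.1.0 and Seurat against mm10, whereas the file headers name Cell Ranger 7.0.1. The deposited values are raw UMI counts per gene and cell barcode. Annotation version, intron treatment and the strand rule are not given in the sources used here. The 2 libraries were compared with no test, as 1 library per genotype has no replicates.

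Cells needed 200 or more genes and no more than 20% of UMIs from mitochondrial genes. Scrublet scores, as run in scanpy 1.11.5, removed 0.8% of cells per 1000 recovered (1034 wild-type and 1295 knockout barcodes), because the automatic threshold marked 0 wild-type and 717 knockout barcodes. Cells of both libraries were clustered together on 2000 variable genes without the 5 genes or the pathway lists (30 components, 15 neighbours, Leiden resolution 1, leidenalg 0.10.2). A class name needed at least 3 fixed markers that were at least 2-fold higher and in 10% of a cluster's cells, so these classes are rebuilt names. Clusters 20, 21 and 28 met this rule but stayed unnamed. In clusters 20 and 21 the leading genes pointed away from the class with the most raised markers. Cluster 28 was shallow and none of its raised markers led. Its 37 wild-type and 22 knockout cells, with 15 mesenchymal markers raised, are thus outside the mesenchymal-like class. Types 1 and 2 of conventional dendritic cells shared a cluster. A gate by markers in each cell, which named 14702 of 21764 cells, was an alternative, with 3368 cells just inside it and 4164 short by 1 marker.

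UMIs were summed per class and library. Intervals at 95% are exact Poisson for CPM, Clopper-Pearson for shares and exact conditional for ratios (scipy 1.17.1), and cover counting error only. Ratios needed 20 UMIs over both libraries, and past 2-fold is a size, not a test. On simulated counts the script was checked before use. Shares were also computed after thinning to 1000 UMIs, for which 919 cells (wild type) and 607 cells (knockout) were too shallow.

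The 5 genes and all lists were chosen with earlier results of these data known. Named beside the 5 genes were the 5 genes of most similar pattern for each (with at least 200 UMIs, over sums of at least 20 cells), the detected receptors, and of each other list the 2 highest and 2 lowest ratios in mesenchymal-like and macrophage-like cells; some values of these lists are not reported here. Alternatives covered clustering, doublets, filters, gating, scaling, thinning, the richest cells and minimum UMIs, and 5 that reweighted or left out clusters were chosen after seeing the data.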

Additional observations from a re-analysis of the deposited data

Results flagged for a closer look

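Ccl2 had a log2 ratio of knockout over wild type of -2.46 in cholangiocyte-like cells and 0.17 in classical monocyte-like cells, opposite directions whose difference was not tested. Ccl7 had -1.93 in classical monocyte-like cells and 1.38 in the 18 wild-type and 35 knockout cycling-like cells, again opposite and not tested. In the cycling-like cells the ratio was -0.78 once the 5 richest cells per library were set aside.

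The genes were also read in clusters that took no class name. Values are given for the wild-type and then the knockout library, mainly for genes that lay above the level of B-like cells in both. Some genes lay below it. Ccl7 in cluster 20 had 6.29 and 2.76 CPM, against 6.56 and 3.79 CPM in B-like cells. Ccl12 in cluster 21 had 3.07 and 2.81 CPM, against 5.43 and 3.01 CPM. Cluster 8, of shallow cells (median 1030 UMIs) led by Gm26917 and Lars2, had 117.7 and 57.2 CPM of Ccl2, 67.5 and 17.0 CPM of Ccl7, 46.8 and 23.2 CPM of Ccl8, 60.6 and 30.9 CPM of Ccl12, and 100.4 and 114 CPM of Ccr2. Cluster 20, led by cell cycle genes and Eomes, had 129 and 104 CPM of Ccr2. Cluster 21, led by the granule genes Mpo, Elane and Ctsg of myeloid precursors, had 84.3 and 107 CPM of Ccl2 and 243 and 269 CPM of Ccr2. Cluster 28, led by the platelet genes Ppbp and Gp9, held 37 and 22 shallow cells (median 949 UMIs). All 15 mesenchymal markers were raised in this cluster, but none was among its leading genes. It had 300.2 and 125 CPM of Ccl2 and 66.7 and 83.4 CPM of Ccl7, from at most 18 UMIs in a library.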

How the results depend on the processing

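No paired analysis was possible because each genotype is 1 library with no replicate number, and for the same reason no replicate could be left out. The cause of each shift below was not tested. For the log2 ratio of knockout over wild type, Ccl2 in mesenchymal-like cells (-2.20) was negative under all 13 alternatives. It read -1.87 with no doublets removed, -1.90 with the automatic doublet threshold, -2.51 as a mean of per-cell CPM, -1.97 after thinning, -2.55 without the 5 richest cells, and -1.76 with the wild-type mix of sub-clusters, an alternative chosen after seeing the data. Ccl7 in those cells (-1.68) read -1.44 with no doublets removed and -1.39 with the automatic threshold. In macrophage-like cells Ccl2 (-0.19) read -0.31 under the gate and -0.33 with median-of-ratios scaling. In classical monocyte-like cells Ccl2 (0.17) read 0.51 after thinning and Ccr2 (-0.48) read -1.36 under the gate.

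The direction was followed through the alternatives for part of the ratios. Among the followed ratios whose interval excluded 0, it turned in 3. These were Ccl2 in cholangiocyte-like cells under the gate (0.48), Ccl7 in classical monocyte-like cells after thinning (0.38) and Ccr2 in conventional dendritic-like cells under the gate (1.70). Among the followed ratios whose interval included 0 it turned for Ccr2 in macrophage-like cells (10 of 12 alternatives kept the sign) and in NK or innate lymphoid-like cells (5 of 11), and for the knockout ratio of mesenchymal-like over myeloid cells of Ccl2 and of Ccl7 (9 of 12 each). Ccl7 in cycling-like cells, not among the followed ratios, also turned, from 1.38 to -0.78 without the 5 richest cells of each library.

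For mesenchymal-like over myeloid cells, wild-type Ccl2 (2.03) read 1.82 with no doublets removed, 1.81 with the automatic threshold, 2.20 under the gate, 2.22 by per-cell CPM, 1.69 by median of ratios, 2.36 after thinning and 1.73 without the richest cells. Knockout Ccl2 (0.03) read 0.19 with separate clustering, 0.21 under the gate, -0.35 by median of ratios, 0.59 after thinning and -0.58 without the richest cells. Wild-type Ccl7 (1.006) read 0.69 against macrophage-like cells alone, 0.86 with no doublets removed and with the automatic threshold, 1.21 under the gate, 1.296 by per-cell CPM, 0.67 by median of ratios, 1.41 after thinning and 0.54 without the richest cells. Knockout Ccl7 (0.19) read -0.22 against macrophage-like cells alone, 0.54 by per-cell CPM, -0.20 by median of ratios, 0.60 after thinning and -0.41 without the richest cells.

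The percent of genes at least 2-fold lower in knockout mesenchymal-like cells was 8.09 with 1 UMI as the minimum and 1.09 with 100, and in macrophage-like cells 6.74 and 0.69. The higher calls were 10.98 and 2.58, and 11.3 and 2.91.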

Other observations

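T-like cells held Ccr2 unevenly. The cluster led by Il17a, Il23r and Trdc, genes of interleukin 17-producing gamma-delta T cells, had 185 CPM (139 to 242) in 60 wild-type cells and 218 CPM (177 to 266) in 75 knockout cells. The cluster led by Cd40lg, Slamf1 and Themis had 84.0 and 102 CPM. The cluster with Lef1 and Tcf7, genes of naive T cells, and Cd8b1 among its leading genes had 36.2 and 26.3 CPM. The cluster with the regulatory T cell genes Foxp3 and Ctla4 had 76.5 CPM (52.7 to 107) and 35.6 CPM (24.8 to 49.5), a log2 ratio of -1.11 (-1.83 to -0.37), from 33 and 35 UMIs.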
